A study of Mus musculus with 8 samples.

Results

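The STAT genes covered here are Stat2, Stat3, Stat4, Stat5a, Stat5b and Stat6. Every probe set that the array's annotation gives to exactly 1 of these symbols was taken, which made 13 probe sets of 6 genes among the 45101 probe sets of the table. The arrays compared brain microvessels of 2 genotypes at postnatal day 1. The mutants were PDGFRb (D849V) knock-ins, whose altered receptor, found on pericytes, signals without its ligand, and the controls were wild type; 4 brains of each were used, all 129S/J mixed in background. Microvessels came from the dissociated brains on magnetic beads that bind PECAM, an endothelial surface protein, so endothelial cells, attached pericytes and any other clinging cells were read together, 1 array per brain, as log2 expression values made by the authors with GCRMA. Zygosity, sex and litter are not stated. All 10 endothelial and all 10 pericyte markers listed were above the detection filter, with a summed endothelial level (log2 of summed linear values) of 15.41 to 15.79 on the mutant arrays and 15.78 to 15.96 on the control arrays. In such a sample fewer cells of one type and less RNA per cell cannot be told apart.

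STAT proteins are transcription factors that wait in the cytoplasm until a cytokine receptor is engaged. Janus kinases on the receptor then phosphorylate them, they pair up, enter the nucleus and bind DNA, and the SOCS proteins they induce shut the receptor down again. STAT2 is the member that works with IRF9 and another STAT protein in the complex that type I interferon activates, and several of the genes that this complex induces encode its own parts. STAT3 answers the IL-6 family and STAT5A and STAT5B answer growth hormone, prolactin and several interleukins. STAT6 answers IL-4 and IL-13, and STAT4, found mostly in T cells and natural killer cells, answers IL-12.

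Stat2 was the gene of the family with a large difference between the genotypes. On its probe set 1421911_at it rose 11.3-fold in mutant microvessels (95% confidence interval 4.43 to 28.6, n = 4 each), a log2 difference of 3.49. The size rests on dim control values and on a technical split of the arrays described below: it was 2.79 on the log2 scale with values under 4 set to 4, and 6.04-fold with that split as a block. Without the block the call was lost when mutant array 1 or 3 or control array 2, 3 or 4 was left out. It was also lost when no filter was set (limma adjusted p = 0.107). On 1450403_at Stat2 read higher by 2.94 on the log2 scale without passing the test. Stat3, Stat5b and Stat6 were measured well above background in both genotypes and none of their probe sets passed, with differences between -0.26 and 0.50. When each array was weighted by its estimated spread (array weights), 2 Stat3 probe sets passed. That fit called 3910 of the 22252 probe sets tested, against 589 in the main fit. With the technical split as a block these 2 differed by 0.30 (1460700_at) and 0.08 (1426587_a_at) on the log2 scale, and neither passed. Stat4 and Stat5a lay under the detection filter on all arrays. Among all features 1.85% of the 22252 probe sets tested rose and 0.795% fell (limma, Benjamini-Hochberg adjusted p under 0.05), and of the STAT probe sets 1 of the 8 tested rose and none fell. With a term for the spike-in groups of arrays described below these shares were 1.65% and 1.15%, and again 1 STAT probe set rose. At an unadjusted p under 0.05 it was 3 of the 8, all higher (both of Stat2 and 1460700_at of Stat3), against 16.4% of all tested probe sets. With the block it was 5 of the 8, with 1422103_a_at of Stat5b and 1426353_at of Stat6 lower, against 19.3% of all.

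The filter kept a probe set that exceeded a log2 value of 4 on at least 4 of the 8 arrays. It kept 8 STAT probe sets and left out 5, namely 1 of Stat3, the only one of Stat4, both of Stat5a and 1 of Stat5b. Both Stat2 probe sets passed it through the mutant arrays: all 4 mutant arrays and 1 of the 4 control arrays exceeded 4 on each. A count over the 8 is therefore not read as a property of the family.

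**Figure D1:**
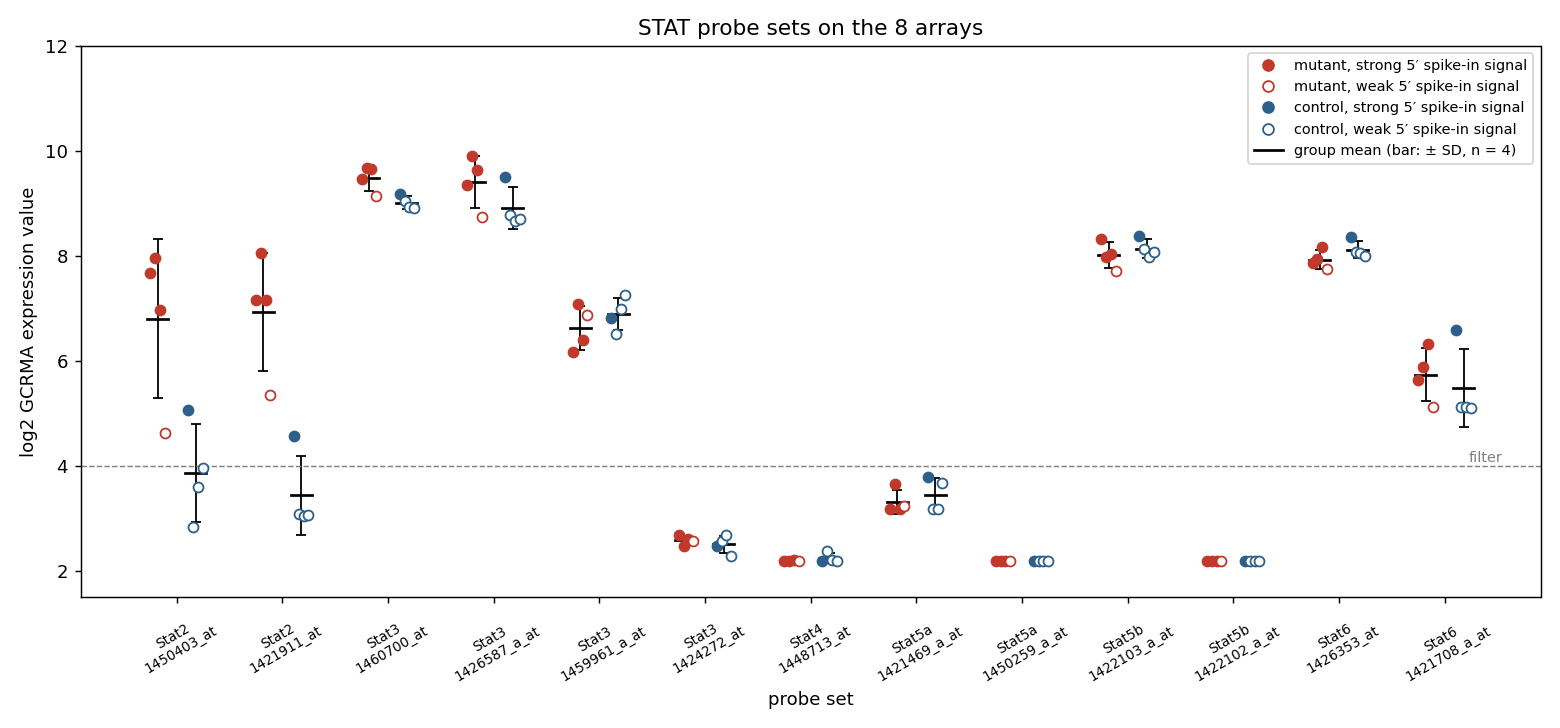
Log2 GCRMA expression value (vertical axis) of the 13 STAT probe sets (horizontal axis) on each array, mutant arrays in red left of control arrays in blue, with group means and SD (n = 4). Filled points are arrays with a strong and open points arrays with a weak 5′ signal of the spike-in controls; on both Stat2 probe sets mutant 4 is the lowest mutant array and control 1 the highest control array.

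The arrays differed in a technical measure that bears on these values. Besides mouse genes, the arrays read control transcripts of bacterial origin, thr and dap among them, which in this kind of assay are added to the RNA before labelling and owe nothing to the mouse. The probe set near the 5′ end of thr read 8.47, 7.33 and 7.70 on mutant arrays 1 to 3 and 4.49 on mutant array 4, against 7.85 on control array 1 and 4.61, 4.30 and 4.76 on control arrays 2 to 4. That of dap read 11.78, 10.46, 10.97 and 9.12 on mutant arrays 1 to 4, against 11.01, 9.01, 8.63 and 8.68 on control arrays 1 to 4. Mutant arrays 1 to 3 and control array 1 thus had a strong 5′ signal, and mutant array 4 and control arrays 2 to 4 a weak one. At the 3′ end of thr the same arrays did not separate, with 9.10 on mutant array 4, against 9.12 on control array 1. The 5′ minus 3′ difference of the mouse actin control ran from -1.08 to -0.94 over all 8 arrays, whereas the spike-ins phe and lys parted the sets by smaller amounts. For phe this difference ran from 0.53 to 0.83 on the arrays of strong 5′ signal and from 0.16 to 0.47 on those of weak signal, and for lys from 0.949 to 1.002 and from 0.290 to 0.944.

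With genotype in the model, 4.59% of all tested probe sets differed between the arrays of strong and of weak 5′ signal (limma adjusted p under 0.05), and 4.07% were higher where the signal was strong. Among the STAT probe sets 4 of 8 did so: Stat2 1450403_at by 2.26 and 1421911_at by 1.80, Stat6 1421708_a_at by 1.15 and Stat3 1426587_a_at by 0.84 on the log2 scale, with limma adjusted p from 0.0160 to 0.0332. The 2 sets hold the genotypes 3 to 1 and 1 to 3, so each tested STAT probe set is given below also with the set as a block. For some of them the differences within each set are given too. This division of the arrays was made after the values were seen; the labels name no labelling batch.

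**Figure D2:**
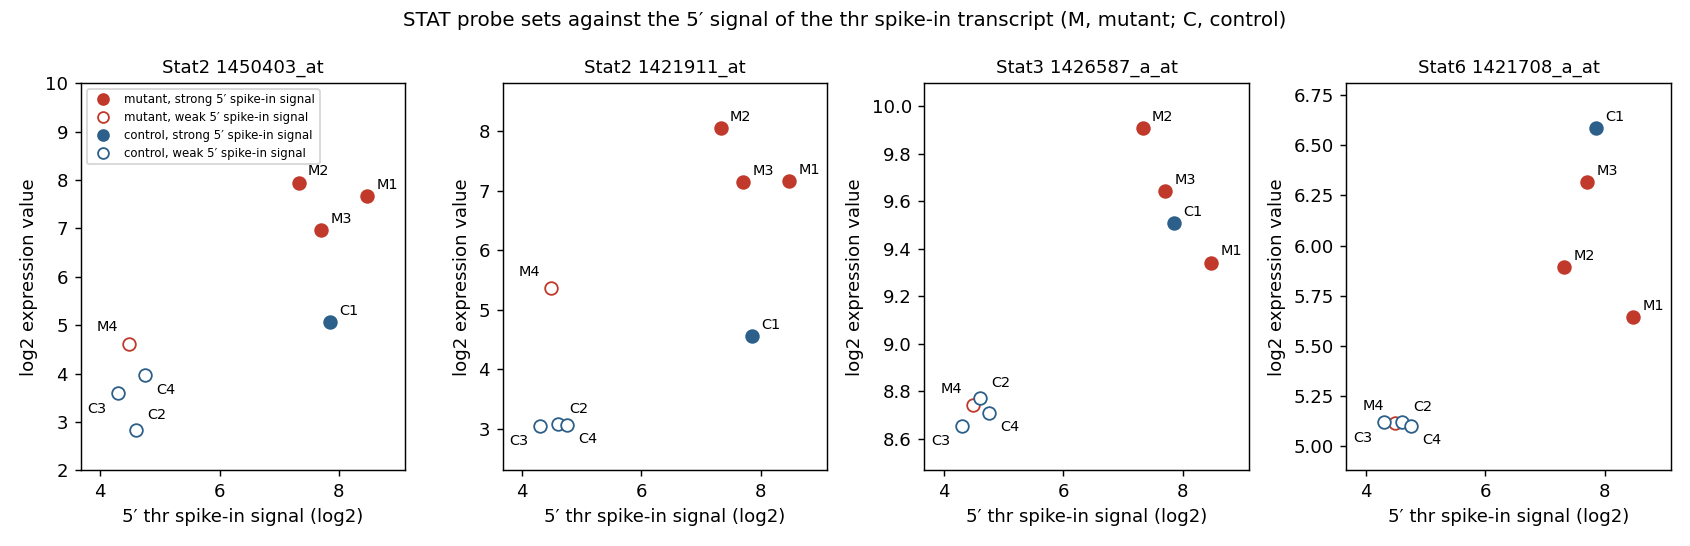
Log2 expression value (vertical axes) of the 4 STAT probe sets that differed between the spike-in sets against the log2 signal of the 5′ thr spike-in probe set (horizontal axes), 1 point per array, mutant red and control blue. On both Stat2 probe sets the mutant arrays of each set lie above the control arrays of the same set, while on Stat3 1426587_a_at and Stat6 1421708_a_at mutant 4 lies among controls 2 to 4.

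Stat2, the interferon-responsive member, is described first, and its promoter is shown with those of Stat4, read at the floor, and Stat3, read well above the filter, because an interferon-stimulated response element is the DNA motif through which the STAT2-IRF9 complex acts. The sequences are the 250 bases before a transcription start in RefSeq's annotation of GRCm38.p6, on the strand of the gene, with matches to the element's core (GAAA, any 2 bases, GAAA) on either strand in capitals. Stat2 is shown from chr10:128270248-128270497 (plus strand), Stat4 from its more downstream start at chr1:52007990-52008239 (plus strand) and Stat3 from chr11:100939541-100939790 (minus strand).
Stat2: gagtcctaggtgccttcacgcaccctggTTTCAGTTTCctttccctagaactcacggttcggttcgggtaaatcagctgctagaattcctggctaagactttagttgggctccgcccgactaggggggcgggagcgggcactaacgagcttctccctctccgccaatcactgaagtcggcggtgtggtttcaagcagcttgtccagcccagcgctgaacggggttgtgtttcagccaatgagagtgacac
Stat4: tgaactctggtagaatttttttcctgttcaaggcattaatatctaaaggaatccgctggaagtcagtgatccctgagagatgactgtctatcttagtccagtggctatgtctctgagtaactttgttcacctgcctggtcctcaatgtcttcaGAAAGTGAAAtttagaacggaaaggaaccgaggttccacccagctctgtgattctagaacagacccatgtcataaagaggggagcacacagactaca
Stat3: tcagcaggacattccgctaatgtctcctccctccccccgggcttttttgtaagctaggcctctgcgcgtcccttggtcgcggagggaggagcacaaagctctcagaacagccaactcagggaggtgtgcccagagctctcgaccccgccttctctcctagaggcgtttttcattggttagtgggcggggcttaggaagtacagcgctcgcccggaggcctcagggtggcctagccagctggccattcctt

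In Stat2 the match lies 222 to 213 bases before the start and reads on the opposite strand, and in Stat4 it lies 97 to 88 bases before the start on the gene's own strand. No match stood in the 250 bases before the starts of Stat3 and Stat6, the other start of Stat4, or either start of Stat5a and Stat5b. Of all 32851 such windows 2.98% held 1 or more. The gamma-activated motif TTCNNNGAA, its own reverse complement, was in 7.02% of all windows and in none of the 9 STAT windows. These are matches of letters, and binding was not measured. Stat2, the member with the rise, and Stat4, which lay at the floor in both genotypes, are the 2 with a match.

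On 1421911_at Stat2 read 7.17, 8.06, 7.15 and 5.36 on mutant arrays 1 to 4, against 4.56, 3.09, 3.05 and 3.06 on control arrays 1 to 4. Every mutant array was above every control array, as in 3.28% of all tested probe sets, but mutant array 4 and control array 1 came within 1 log2 unit of each other. The means ± SD of 4 arrays were 6.93 ± 1.13 in mutants and 3.44 ± 0.75 in controls, which differed by 3.49 (SE 0.586, limma adjusted p = 0.0186). Since 3 control arrays lay under the filter level, the size of the difference depends on dim values, and with all values under 4 set to 4 it was 2.79 (limma adjusted p = 0.0257).

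On 1450403_at Stat2 read 7.67, 7.95, 6.97 and 4.62 on mutant arrays 1 to 4, against 5.07, 2.84, 3.59 and 3.96 on control arrays 1 to 4. The groups overlapped, because control array 1 was above mutant array 4. Mutants averaged 6.80 ± 1.51 and controls 3.86 ± 0.93 (SD of 4 arrays), and the difference of 2.94 did not pass (SE 0.764, limma adjusted p = 0.112). The mutant arrays spread widely on both probe sets: 99.4% of all tested probe sets had a smaller SD among the mutants than 1421911_at and 99.8% a smaller one than 1450403_at.

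Within the arrays of strong 5′ signal the Stat2 difference was 2.90 on 1421911_at and 2.46 on 1450403_at (mutants 1 to 3 against control 1), and within those of weak signal 2.29 and 1.16 (mutant 4 against controls 2 to 4). With the set as a block 1421911_at was 6.04-fold higher in mutants, a log2 difference of 2.59 (SE 0.262, limma adjusted p = 0.00257), and 1450403_at was higher by 1.81 (SE 0.418, limma adjusted p = 0.0800). The difference was smaller in this fit than without the block, as was its standard error. Whether the genotype difference itself varied between the sets was tested as an interaction, and it did not pass (1421911_at 0.60, SE 0.515, and 1450403_at 1.30, SE 0.741, limma adjusted p = 1 for each). Without the block the call on 1421911_at was lost when any 1 of mutant arrays 1 and 3 or control arrays 2, 3 and 4 was left out (limma adjusted p 0.0620, 0.0716, 0.0675, 0.0698 and 0.0728), and when no filter was set (limma adjusted p = 0.107). Without mutant array 4 both Stat2 probe sets passed, at 4.02 and 3.66 (limma adjusted p = 0.00306 and 0.0114).

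Markers of microglia and macrophages, the resident immune cells of the brain, rose in the same comparison. Of the 18 markers listed 17 had a probe set and 14 were tested, of which 11 rose and none fell (10 rose with the spike-in set as a block). Over all genes, each by its brightest probe set, 2.39% rose and 2.1% with the block. For the list, the summed linear level, as log2, ran from 13.69 to 14.50 on the mutant arrays and from 12.28 to 12.85 on the control arrays. Aif1, a calcium-binding protein of microglia, read 10.02, 9.41, 9.52 and 8.73 on mutant arrays 1 to 4, against 6.47, 5.03, 6.12 and 6.82 on control arrays 1 to 4. It had the largest difference of the tested markers, 3.31 on the log2 scale against a list median of 2.11. Itgam, an integrin of myeloid cells, lay within 0.5 of the lowest value of any probe set (the floor, 2.18) on every array, and Tmem119, of microglia, did not pass the filter. Trem2, also of microglia, was not tested either, and its mutant arrays (3.09 to 4.29) all lay above its control arrays (2.24 to 2.62). As Stat2 was, all 14 tested markers were lowest among the mutant arrays on array 4, and 6 of the 14 were highest among the control arrays on array 1. This order was not particular to them. Lowest on mutant array 4 were also 9 of 10 endothelial markers and 17 of 18 genes of the STAT2-IRF9 list given below, against 0 of 10 pericyte markers. Of the 10 endothelial markers 6 were highest among the control arrays on array 1. The part of microglia and macrophages in the Stat2 result was not tested.

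Stat3, which transmits IL-6 family signals, had 4 probe sets, 3 of them tested. On the one with the highest mean, 1460700_at, it read 9.46, 9.68, 9.65 and 9.14 on mutant arrays 1 to 4, against 9.19, 9.04, 8.92 and 8.91 on control arrays 1 to 4. Only mutant array 4 and control array 1 crossed. Mutants averaged 9.48 ± 0.25 and controls 9.02 ± 0.13 (SD of 4 arrays), and the difference of 0.47 did not pass (SE 0.139, limma adjusted p = 0.155). It was 0.41 within the arrays of strong 5′ signal, 0.18 within those of weak signal and 0.30 with the set as a block (SE 0.104, limma adjusted p = 0.194). Without mutant array 4 it passed, at 0.58 (SE 0.111, limma adjusted p = 0.0446), and with array weights, at 0.65 (SE 0.0984, limma adjusted p = 0.00500).

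On 1426587_a_at Stat3 read 9.34, 9.91, 9.64 and 8.74 on mutant arrays 1 to 4, against 9.51, 8.77, 8.66 and 8.71 on control arrays 1 to 4. The arrays ordered by spike-in set rather than by genotype, with control array 1 between the mutant arrays and mutant array 4 between the control arrays. The difference was 0.50 over all arrays (SE 0.284, limma adjusted p = 0.417) and 0.08 with the set as a block (SE 0.147, limma adjusted p = 0.797), where its 95% confidence interval ran from -0.27 to 0.42. With array weights it passed, at 0.81 (SE 0.185, limma adjusted p = 0.0235). On 1459961_a_at, a dimmer probe set, mutants averaged 6.63 ± 0.42 and controls 6.90 ± 0.31 (SD of 4 arrays), with a negative difference of -0.26 (SE 0.235, limma adjusted p = 0.607). With the set as a block this difference was -0.16 (SE 0.277, limma adjusted p = 0.776). The remaining probe set, 1424272_at, was within 0.5 of the floor or barely over it on all arrays, between 2.47 and 2.68 in mutants and between 2.29 and 2.69 in controls.

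The probe sets of Stat3 did not all point the same way, so the difference between probe sets on each array was compared between the genotypes for all 5 pairs of tested probe sets of 1 gene (exact two-sided permutation test over 70 assignments). The largest gap was between 1426587_a_at and 1459961_a_at of Stat3, 0.76 (exact p = 0.114, adjusted p = 0.286 over the 5 pairs), followed by 1460700_at against 1459961_a_at at 0.73 (exact p = 0.114, adjusted p = 0.286). The Stat2 probe sets differed by -0.56 (1450403_at minus 1421911_at, exact p = 0.229, adjusted p = 0.321) and those of Stat6 by -0.45 (exact p = 0.257, adjusted p = 0.321). No pair passed. The smallest exact p that the design allows is 0.0286 before adjustment, so 1 pair alone could not have passed over the 5 pairs. The outcome therefore does not show that the probe sets of a gene give the same difference.

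Stat5b and Stat5a, neighbouring genes that lie next to Stat3 on chromosome 11, encode near-twin factors. Stat5b was read by 1422103_a_at at 8.33, 7.98, 8.04 and 7.71 on mutant arrays 1 to 4, against 8.39, 8.13, 7.97 and 8.07 on control arrays 1 to 4. The groups overlapped, and mutants averaged 8.02 ± 0.25 and controls 8.14 ± 0.18 (SD of 4 arrays, difference -0.12, SE 0.149, limma adjusted p = 0.713). The 95% confidence interval of this difference, -0.47 to 0.22, leaves out a change of 2-fold in either direction. With the spike-in set as a block it was -0.31 (SE 0.115, limma adjusted p = 0.217), and within the sets -0.27 and -0.34. The second Stat5b probe set, 1422102_a_at, gave 2.18, the lowest value among all probe sets, on all 8 arrays. Both Stat5a probe sets were dim: 1450259_a_at gave 2.18 on all arrays, and 1421469_a_at ran from 3.18 to 3.66 in mutants and from 3.18 to 3.79 in controls. A value at the floor does not show that a gene is silent, since the bright and the floor probe set of Stat5b are assigned to the same gene.

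Stat6, the factor of IL-4 and IL-13, read 7.86, 7.95, 8.16 and 7.75 on mutant arrays 1 to 4 on 1426353_at, against 8.36, 8.07, 8.05 and 7.99 on control arrays 1 to 4. Control array 1 was the highest of the 8 and mutant array 4 the lowest. Mutants averaged 7.93 ± 0.18 and controls 8.12 ± 0.16 (SD of 4 arrays, difference -0.19, SE 0.125, limma adjusted p = 0.480), and with the set as a block the difference was -0.33 (SE 0.103, limma adjusted p = 0.156). On 1421708_a_at Stat6 read 5.64, 5.89, 6.31 and 5.11 on mutant arrays 1 to 4, against 6.59, 5.12, 5.12 and 5.10 on control arrays 1 to 4. The 4 arrays of weak 5′ signal lay close together whatever their genotype, and the other 4 were all higher. The difference was 0.26 over all arrays (SE 0.388, limma adjusted p = 0.770) and turned to -0.32 with the set as a block (SE 0.204, limma adjusted p = 0.424). Both Stat6 probe sets thus had a negative difference in the blocked fit, and neither passed.

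Stat4, the IL-12 factor of T and natural killer cells, had 1 probe set, 1448713_at, which ran from 2.19 to 2.21 on the mutant arrays and from 2.19 to 2.38 on the control arrays. Of the 12 markers of T cells and natural killer cells listed, 10 had a probe set and none passed the filter. Cd3d, Cd3e and Cd3g, which encode the T cell receptor's signalling chains, lay within 0.5 of the floor on all arrays. The exception in level, named after its values were seen, was Gzma, the protease granzyme A of cytotoxic cells, at 8.92, 8.0, 8.07 and 2.58 on mutant arrays 1 to 4, against 2.30, 2.22, 2.22 and 2.53 on control arrays 1 to 4. It exceeded the filter level on the 3 mutant arrays of strong 5′ signal alone and was not tested.

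**Figure D3:**
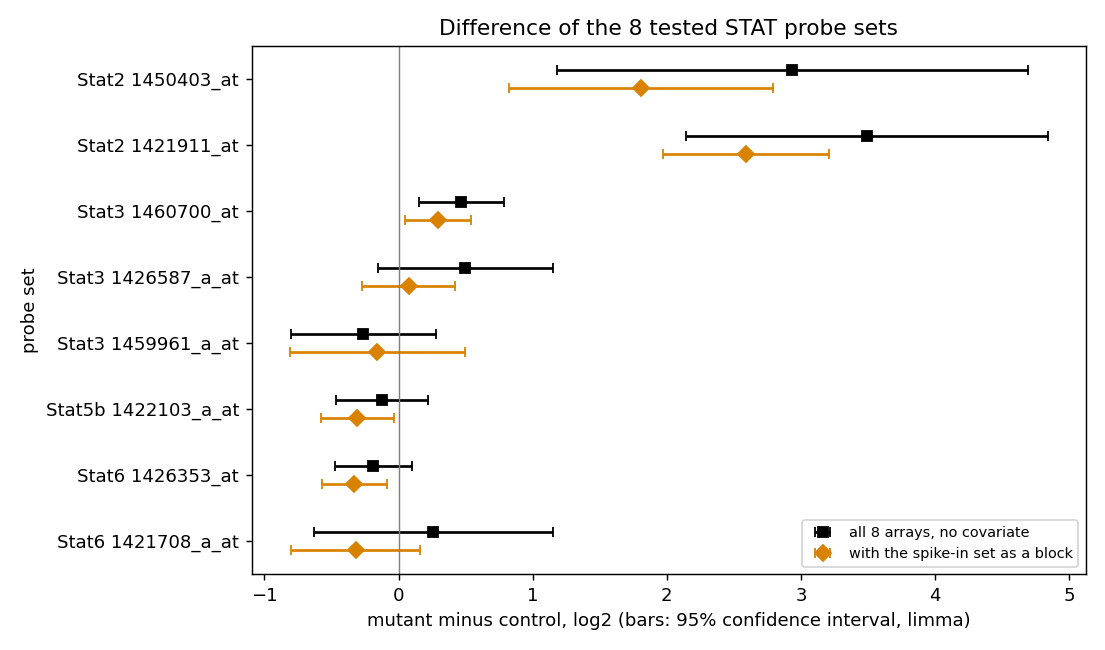
Mutant minus control difference on the log2 scale (horizontal axis) of the 8 tested STAT probe sets (vertical axis), with 95% confidence intervals from limma, for all 8 arrays without a covariate (black squares) and with the spike-in set as a block (orange diamonds). The intervals of both Stat2 probe sets and of Stat3 1460700_at lie above 0 in both fits. Those of Stat3 1426587_a_at and 1459961_a_at and of Stat6 1421708_a_at span 0 in both. Those of Stat5b 1422103_a_at and Stat6 1426353_at span 0 without the covariate and lie below 0 with the block. The intervals are not adjusted for the number of probe sets tested.

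The genes around the STAT proteins were described from fixed lists, each gene by its brightest probe set. Over all 11445 genes represented this way 2.39% rose and 1.11% fell, and the median difference was -0.11. With the spike-in set as a block these shares were 2.1% and 1.11%. Of the 19 tested receptors, signal-transducing chains and Janus kinases, none rose or fell by limma, with or without the block (median 0.05). At an unadjusted p under 0.05, 1 was higher and 5 lower, against 16.4% of all tested probe sets in either direction. Ifnar2, a chain of the type I interferon receptor, read 10.61 ± 0.16 in mutants and 10.50 ± 0.18 in controls, and Osmr, the oncostatin M receptor, 10.15 ± 0.17 in mutants and 10.51 ± 0.06 in controls (SD of 4 arrays, limma adjusted p = 0.692 and 0.149). Ifnar1, the other chain of the interferon receptor, named after its values were seen, was below every control array on every mutant array without passing (9.48 ± 0.16 in mutants and 9.93 ± 0.12 in controls, difference -0.45, limma adjusted p = 0.0872). Ifnar1 was not alone in this: Osmr, Ghr and the kinase Tyk2 of the same list also lay wholly below the controls without passing. The share of all probe sets lying wholly below was not counted, so no trait of the list is read from these genes. The kinase Jak1, named after its values were seen, followed the spike-in sets as Stat3 1426587_a_at did, at 9.96, 10.34, 10.004 and 9.12 on mutant arrays 1 to 4, against 10.19, 9.18, 9.04 and 9.34 on control arrays 1 to 4 (0.99 higher where the 5′ signal was strong, limma adjusted p = 0.0130). With the set as a block its genotype difference was -0.08.

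Of the 7 tested partners of STAT proteins, 2 rose and none fell. Irf9, the DNA-binding subunit that joins STAT2, read 10.09, 10.001, 9.90 and 9.57 on mutant arrays 1 to 4, against 8.24, 8.10, 8.14 and 7.59 on control arrays 1 to 4. These groups stood apart on every array, and Irf9 was 3.66-fold higher (difference 1.87, SE 0.173, limma adjusted p = 0.000554, and 1.69 with the set as a block, limma adjusted p = 0.00178). Nmi, a protein that binds STAT proteins, was 3.28-fold higher (limma adjusted p = 0.000179). The other 5 had negative differences that did not pass, and the list median was -0.23.

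Every tested gene of the STAT2-IRF9 list rose, 18 of 18, with a median difference of 5.62 and of 4.77 where control groups wholly under the filter were set to 4, and all 18 also rose with the spike-in set as a block. This list restates the interferon response already known from these arrays and is given for its values beside Stat2. Ifit1, which binds viral RNA, rose at least 232-fold, Oasl1, a relative of the oligoadenylate synthetases, at least 29.9-fold higher, Ifit2 43.8-fold higher and Irf7, a transcription factor of interferon genes, 115-fold higher, with limma adjusted p of at most 1.45e-06. The mean of the list with each gene centred was 2.43, 2.66, 2.36 and 2.001 on mutant arrays 1 to 4, against -2.25, -2.31, -2.18 and -2.70 on control arrays 1 to 4. Mutant array 4 was thus the lowest mutant array for this list as for Stat2, but it lay far above the controls, and control array 1 did not stand out. Oas3 of this list was near the floor on all arrays.

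Of 19 tested negative regulators 3 rose and none fell (median -0.16). At an unadjusted p under 0.05, 4 were higher and 5 lower, against 16.4% of all tested probe sets in either direction. Usp18, which removes ISG15 and damps the interferon receptor, was 55.3-fold higher, Socs2, a feedback inhibitor downstream of STAT5, 1.88-fold higher, and Ptprc, the leukocyte phosphatase CD45, 3.58-fold higher (limma adjusted p = 2.58e-05, 0.00357 and 0.0389). With the set as a block Ptprc no longer passed (limma adjusted p = 0.0622). Socs3, the feedback inhibitor of STAT3, named after its values were seen, read 10.91 ± 0.19 in mutants and 11.38 ± 0.56 in controls (SD of 4 arrays, limma adjusted p = 0.405). Socs1 lay near the floor in both genotypes, from 2.51 to 2.86 on the mutant arrays and at 2.18 on all control arrays.

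In the lists tied to the other STAT proteins single genes passed, too few to set against the 2.39% over all genes. Of 17 tested genes commonly induced through STAT3, only Fgl2, a fibrinogen-like protein of macrophages, rose, 5.29-fold (log2 SE 0.243, limma adjusted p = 0.000975). Of 8 tested genes induced through STAT5 only Socs2 rose. None of 5 tested genes induced through STAT6 passed by limma. At an unadjusted p under 0.05, Klf4 was lower and Clec7a and Mrc1, receptors of macrophages named after their values were seen, were higher (0.93 and 0.68 on the log2 scale, limma adjusted p = 0.166 and 0.273). With the spike-in set as a block Clec7a was higher by 0.70 and Mrc1 by 0.29 (limma adjusted p = 0.268 and 0.375). Clec7a differed by 1.15 within the arrays of strong 5′ signal and 0.26 within those of weak signal. Mrc1 was 0.78 higher where the signal was strong (limma adjusted p = 0.0489). Of the brightest genes of that list, the transcription factor Klf4 read 12.62 ± 0.07 in mutants and 12.90 ± 0.11 in controls, and the transglutaminase Tgm2 12.37 ± 0.07 in mutants and 12.44 ± 0.14 in controls (SD of 4 arrays, limma adjusted p = 0.174 and 0.759). Only Furin, a protease, was tested among those induced through STAT4 (difference -0.13, limma adjusted p = 0.520), and 6 of the 8 genes of that list lay within 0.5 of the floor on every array. No gene of these 4 lists fell by limma. At an unadjusted p under 0.05, 2 genes were higher in each of the STAT3, STAT5 and STAT6 lists. Lower at that level were 2 genes of the STAT3 list, 1 of the STAT6 list and 0 of the STAT5 list. The STAT3 and STAT5 lists share Pim1 among the higher genes. Of all tested probe sets 16.4% were under that level in either direction.

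**Figure D4:**
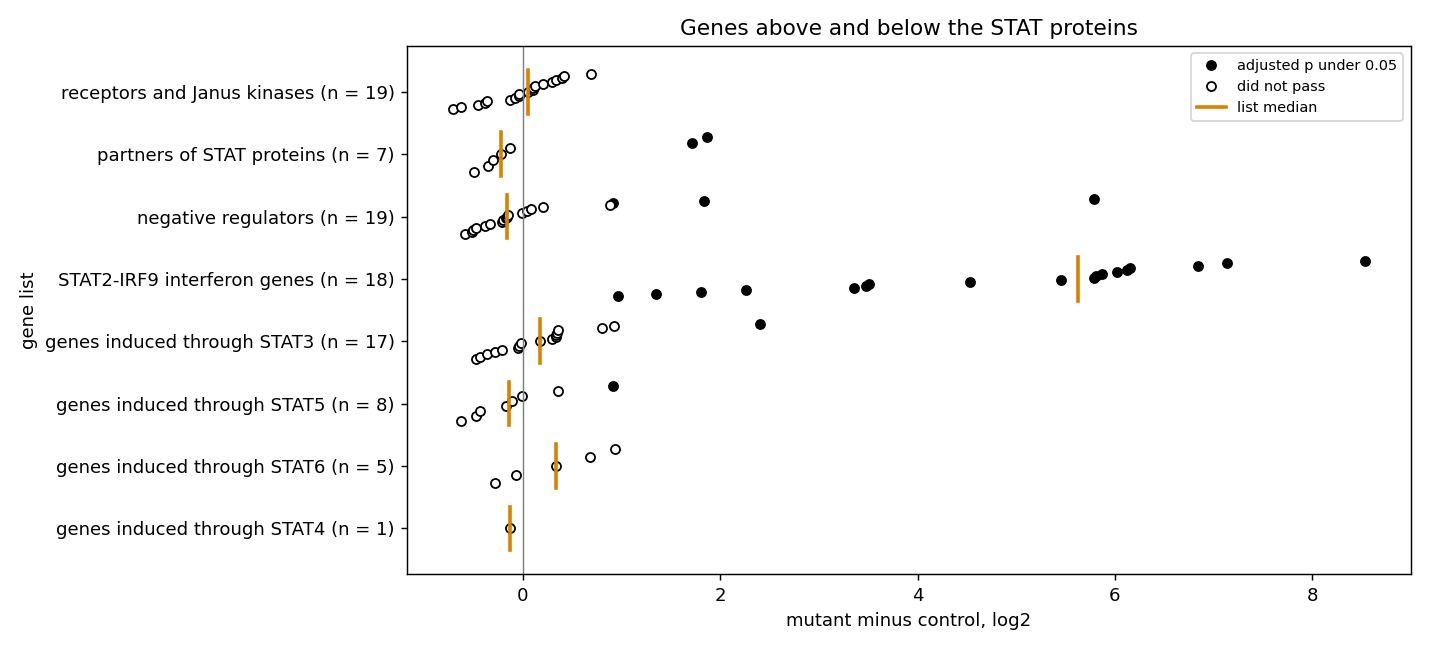
Mutant minus control difference on the log2 scale (horizontal axis) of each tested gene in 8 lists around the STAT proteins (vertical axis), filled where the limma adjusted p was under 0.05, with the list median as an orange bar. All 18 genes of the STAT2-IRF9 list are filled and right of 0, with a median of 5.62, while the medians of the other lists lie between -0.23 and 0.33.

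The genes with the profiles most like the STAT genes were found by the root mean square difference over the 8 arrays, each probe set's own mean subtracted, among 11441 other genes. Nearest to Stat2 1421911_at were Ccl12, a chemokine for monocytes (0.482), Cybb, the catalytic subunit of the phagocyte NADPH oxidase (0.521), and Fcgr1, a high-affinity Fc receptor of macrophages (0.544), against a median distance of 1.99. Since they were chosen for likeness to a called probe set, their own differences of 3.77, 2.66 and 3.87 on the log2 scale are a description. Nearest to Stat3 1460700_at were Il4ra (0.0999), D17H6S56E-5 (0.101) and Tprkb (0.102), to Stat5b 1422103_a_at Mettl2 (0.0439), Aspscr1 (0.0637) and Dbf4 (0.0650), and to Stat6 1426353_at Rin3 (0.0459), Rasa1 (0.0503) and Prkab2 (0.0542). The distances describe 8 arrays that share genotype and spike-in set, and near neighbours of a flat profile are themselves flat.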

How the data were processed

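The authors deposited log2 expression values per probe set, made with GCRMA per the submitters' processing notes, which give no version or options here. The method takes background from probe sequence, applies quantile normalization and summarises the probes, so dim probe sets gather at a floor of 2.18, where differences are not resolved. The log2 scale follows from the range of the values. Arrays have no read depth, and their number, 4 per group, limits the precision.

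The 64 control probe sets were left out of the tests, and 22252 of the rest exceeded 4 on at least 4 arrays. Each was fitted without covariates (lmFit, then eBayes, two-sided; limma 3.58.1, R 4.3.3), with Benjamini-Hochberg adjustment over all of them at 0.05. Symbols came from the platform annotation: 34958 probe sets had 1 symbol, 932 several and 9211 none here. A floor fold ("at least") sets a group wholly under the filter to 4. Where a fit used only 1 array of a genotype in a set, that array was assumed to vary like the others. Genes named by rule were all members, up to 4 members of each list with the smallest p (or the 2 brightest where none passed) and the 3 nearest profiles. Others fell outside this rule, and only some of them are marked where they appear. Not marked were Aif1, Itgam, Tmem119, Trem2, Cd3d, Cd3e, Cd3g, Socs1, Oas3, Ghr, Tyk2 and Pim1. The members and lists were chosen with earlier results of these data known. The labels call the arrays biological replicates from separate brains; no label gives a litter or a batch. In simulated data for this comparison (22252 probe sets, 50 changed per fold, independent normal noise) the fit recovered 26% of 1.5-fold, 64% of 2-fold, 92% of 4-fold and 98% of 16-fold changes, with 8 false calls among 148. Independent noise holds no split like that of the spike-in sets. The mutant SDs of the Stat2 probe sets exceeded those of 99.4% and 99.8% of tested probe sets, so these rates are not read for Stat2.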

Additional observations from a re-analysis of the deposited data

Results flagged for a closer look

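In 5 of the 22 groups of 4 arrays with any spread, 1 array stood apart from its group beyond the 95% critical value of Dixon's test (the gap to the nearest array over the group's range), where chance gives about 1 in 20. In 3 of them it was control array 1, which was above the other controls on Stat2 1421911_at by 1.48 of a range of 1.51 (ratio 0.977), on Stat6 1421708_a_at by 1.47 of 1.48 (ratio 0.988) and on Stat3 1426587_a_at by 0.74 of 0.85 (ratio 0.865). Control array 1 is the only control array with a strong 5′ spike-in signal. The other arrays that stood apart did so on dim probe sets: Stat5a 1421469_a_at on mutant array 2 was above the other mutants by 0.43 (ratio 0.896), and Stat4 1448713_at on control array 2 was above the other controls by 0.17 (ratio 0.910).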

How the results depend on the processing

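The main analysis called 589 probe sets, 1 of them a STAT probe set (Stat2 1421911_at). The number of called probe sets was 304 with a replicate block, 377 without probe sets of suffix _s_at, _x_at or _a_at, 3910 with array weights (1242 higher and 2668 lower, so that most calls were then lower), 322 at a threshold of 0.01, 341 at a fold of at least 2, 334 within the arrays of strong and 195 within those of weak 5′ signal, and 367 to 606 with 1 array left out. The number of STAT probe sets called was 0 with no filter, with a filter at 6 (which leaves out both Stat2 probe sets), with the brightest probe set per gene (which takes the other Stat2 probe set), at a threshold of 0.01 and within the arrays of weak 5′ signal, 4 with array weights (both Stat2 probe sets and Stat3 1460700_at and 1426587_a_at), and 0 to 3 with 1 array left out. It was 1 under the other alternatives, among them centring on the median, under which the calls split 444 higher and 75 lower against 412 and 177. The Stat6 probe sets turned sign in some fits: 1426353_at to 0.044 with array weights, and 1421708_a_at to -0.32 with the spike-in set as a block and -0.64 within the arrays of strong signal. The mean of the Stat6 probe sets, a value of the gene and not of 1426353_at, differed by 0.035. The near-zero gap between Stat3 1460700_at and 1426587_a_at (-0.03) ran from -0.17 to 0.07 with 1 array left out, at 0.071 without mutant array 2, 0.024 without control arrays 2 or 3 and 0.0033 without control array 4. The cause of these shifts was not tested. Same-numbered arrays did not pair (correlations of deviations -0.11, -0.53, -0.21 and 0.33, none best with its own number); under the replicate block Stat2 1421911_at kept its call (limma adjusted p = 0.0497). The spike-in fits and the fit with dim values set to 4 were chosen after seeing the data.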
